A study of Sus scrofa with 30 samples.

Results

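The cytokine LIF, the receptor subunits LIFR, OSMR and IL6ST, the transcription factors STAT3, CEBPB and CEBPD, and the feedback inhibitor SOCS3 were examined in the mammary gland of the sow. The 8 genes were chosen by name, as the signalling route best known for starting mammary involution, and each was measured as the sum of its transcripts in the expression table. The table held 14 transcripts of 7 of these genes, among 61773 transcripts and 26012 gene sums in all; LIFR was not analysed here. The parenchyma came from multiparous half-sib Danish Landrace × Yorkshire sows, 6 per stage. The stages were mid-gestation (MG, day 70), late gestation (LG, day 110), early lactation (EL, day 2 after farrowing), peak lactation (PL, day 10 after farrowing) and the gland after weaning (W2, day 2). Each sow was sampled at a single stage, 1 to 2 cm below the third left teat, so a stage is a set of different animals and the first day after weaning was not sampled.

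In rodents, LIF is released by mammary epithelium when milk is no longer removed. It binds a receptor built of LIFR and IL6ST (gp130), Janus kinases then phosphorylate STAT3, and STAT3 drives genes of cell death, acute phase and its own inhibitor SOCS3. Oncostatin M acts on the same route through OSMR paired with IL6ST. CEBPB is needed for growth and secretory differentiation of the gland, and CEBPD for growth arrest and for acute phase and death genes early in involution. STAT3 is switched on by phosphorylation, which RNA does not measure.

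The authors call the deposited values FPKM, but each sample added up to between 997480 and 1002643, as TPM values do. They are called units here, and are scaled for transcript length. At each stage, 3 samples were almost copies of one another and lay at the mean of the remaining 3, so that n = 3 per stage. The samples counted, in the order in which values are given, were MG 1, 3, 6, then LG 1, 3, 4, then EL 3, 4, 6, then PL 2, 3, 6 and finally W2 2, 3, 6. The sample titles were followed for the stages, because the stage names in the sample records are exchanged between the samples titled EL and MG. Of the defining markers of mammary epithelium, the keratins KRT8 (69.9 to 350 units) and KRT18 (26.0 to 112 units) were present in every sample, and the 6 milk proteins summed to 91237 to 285004 units in PL against 5781 to 8140 units in W2. PL sample 2 stood apart from the other PL samples, with 285004 units of milk protein and a median ratio scaling factor of 0.567 against 0.840 and 0.841. Results are therefore also given without it where that changed the call of a member, or of a gene of the lists described below for W2 vs PL and PL vs EL.

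Over the 15 counted samples, the members covered a wide span of levels per length. CEBPB was the most abundant with a mean of 110 units, followed by CEBPD at 50.7, IL6ST at 22.7, STAT3 at 10.5, OSMR at 6.52 and SOCS3 at 4.18 units. LIF was barely present, at 0.22 units. The plot of levels by sample shows the shape that recurred: CEBPD, OSMR and STAT3 were highest in PL and CEBPB lowest in PL, and W2 lay close to the gestation stages.

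**Figure D1:**
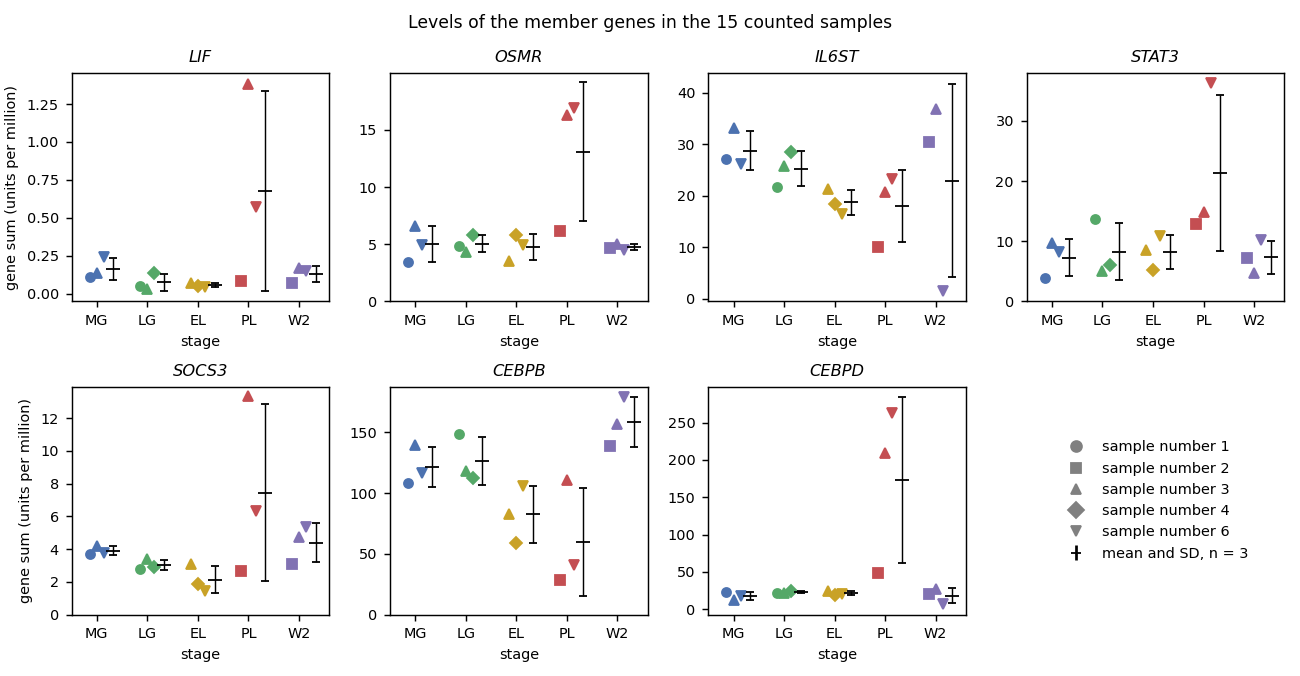
Gene sums (units, linear axes starting at or near 0) of the 7 analysed members in the 15 counted samples, by stage, with the marker shape giving the sample number and the bar the mean and SD of n = 3. CEBPD stands at 48.4 to 262 units in PL and at 6.89 to 27.3 units in every other sample, and CEBPB at 28.1 to 111 units in PL against 139 to 180 in W2.

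LIF lies on chromosome 14 of Sscrofa11.1, from 47221540 to 47239513, and its whole sum came from the transcript XM_013983025.2. Its values were 0.110, 0.135 and 0.242 units in MG, 0.0528, 0.0319 and 0.139 in LG, and 0.0713, 0.0468 and 0.0466 in EL. In PL they were 0.0808, 1.38 and 0.570 units, and in W2 0.0730, 0.170 and 0.147. LIF thus passed 0.5 units in PL samples 3 and 6 alone, and PL sample 2 lay among the samples of gestation. The W2 samples lay within the span of MG and LG. The authors kept only transcripts that reached 0.5 units in some stage, and the LIF transcript did so in PL alone (stage mean 0.679 units, against 0.0549 to 0.162 elsewhere). LIF is thus in the table only through the stage where it was high, so its comparisons with PL are not independent of that filter and are given as a description. The other members held at least 1 transcript at that floor in every stage. The sums of OSMR and IL6ST, however, also include transcripts that reached it in PL alone. LIF did not pass the test in W2 vs PL (log2 fold change -0.75 ± 0.35 SE, limma adjusted p = 0.123), nor in PL vs EL (0.93 ± 0.35, adjusted p = 0.168), although all PL samples lay above all EL samples. Without PL sample 2, W2 vs PL became -1.18 (adjusted p = 0.00676) and PL vs EL 1.36 (adjusted p = 0.00801). Under quantile normalization both also passed (-1.29, adjusted p = 0.00527, and 1.18, adjusted p = 0.0187), and under median ratio scaling neither did (adjusted p = 0.0913 and 0.105). At such levels the pseudocount of 0.5 units outweighs most values, and these changes understate any ratio.

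OSMR, the oncostatin M receptor, lies on chromosome 16 from 24041312 to 24101842. It stood at 3.44, 6.58 and 4.96 units in MG, 4.87, 4.35 and 5.82 in LG, and 3.56, 5.79 and 4.89 in EL. The PL samples held 6.11, 16.3 and 16.9 units, and the W2 samples 4.70, 5.02 and 4.53. PL samples 3 and 6 stood apart from every other sample, whereas PL sample 2 lay within the span of MG. The W2 samples were close together, all below the PL samples, and by mean level PL (13.1 ± 6.07 units, SD, n = 3) came before LG (5.02 ± 0.744), MG (4.99 ± 1.57), W2 (4.75 ± 0.251) and EL (4.75 ± 1.12), with the last 4 overlapping. OSMR was lower in W2 than in PL (log2 fold change -1.25 ± 0.35 SE, adjusted p = 0.0179) and higher in PL than in LG (1.18 ± 0.35, adjusted p = 0.0420) and MG (1.22 ± 0.35, adjusted p = 0.0252). It missed the threshold in PL vs EL (1.27 ± 0.35, adjusted p = 0.0632). The PL sums include XM_013984752.2, which reached the authors' floor in PL alone and held 4.29 and 3.76 units in PL samples 3 and 6. The OSMR comparisons with PL are thus not wholly independent of that filter.

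IL6ST encodes gp130, the subunit shared by the receptors of this cytokine family, and lies on chromosome 16 from 35101304 to 35151832. Its sums were 27.1, 33.1 and 26.1 units in MG, 21.6, 25.7 and 28.4 in LG, and 21.3, 18.3 and 16.4 in EL. They were 10.0, 20.8 and 23.2 units in PL and 30.5, 36.8 and 1.48 in W2. W2 sample 6 was the lowest of all samples while the other W2 samples included the highest, so that the W2 mean of 22.9 units carried an SD of 18.8. IL6ST did not pass the test in any comparison (W2 vs PL -0.40 ± 0.82 SE, adjusted p = 0.743). Without W2 sample 6, the W2 vs PL change turned to 0.96 with an adjusted p of 0.0427, so its direction rested on that sample.

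STAT3, which relays the signal to the nucleus, lies on chromosome 12 from 20407316 to 20471091 and was measured by NM_001044580.1. It stood at 3.84, 9.77 and 8.21 units in MG, 13.7, 5.06 and 6.06 in LG, and 8.47, 5.24 and 10.8 in EL. The PL values were 12.9, 14.9 and 36.3 units and the W2 values 7.25, 4.62 and 10.1. All PL samples lay above all EL, MG and W2 samples, and LG sample 1 alone reached into the PL span. By mean level PL (21.4 ± 13.0 units) came before LG (8.26 ± 4.72), EL (8.16 ± 2.78), W2 (7.34 ± 2.76) and MG (7.27 ± 3.07), and the last 4 did not differ beyond their spread. STAT3 was lower in W2 than in PL (log2 fold change -1.39 ± 0.49 SE, adjusted p = 0.0473). That call was close to the threshold and held in 3 of 15 fits that left out a sample, those without MG sample 1, LG sample 1 or PL sample 2 (adjusted p from 0.0395 to 0.164 over the 15). PL vs MG just missed the threshold (1.43 ± 0.49, adjusted p = 0.0512) and passed it without PL sample 2 (1.71, adjusted p = 0.0490), after median ratio scaling (2.07, adjusted p = 0.0121) and after quantile normalization (2.02, adjusted p = 0.0129). PL vs LG did not pass as deposited (1.29 ± 0.49, adjusted p = 0.0952) but did after median ratio scaling (1.78, adjusted p = 0.0307) and quantile normalization (1.76, adjusted p = 0.0310).

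SOCS3, the inhibitor that STAT3 induces and that shuts gp130 signalling off, lies on chromosome 12 from 3643832 to 3647015. It held 3.68, 4.20 and 3.77 units in MG, 2.81, 3.39 and 2.93 in LG, and 3.06, 1.90 and 1.43 in EL. In PL it held 2.69, 13.3 and 6.32 units and in W2 3.08, 4.76 and 5.37. PL sample 2 was again the low one, below all MG samples, and the W2 samples lay between it and PL sample 6. SOCS3 did not pass the test in PL vs EL (log2 fold change 1.40 ± 0.43 SE, adjusted p = 0.0931) or in W2 vs PL (-0.48 ± 0.43, adjusted p = 0.413). Without PL sample 2 these became 1.93 (adjusted p = 0.00595) and -1.02 (adjusted p = 0.0483), and without PL sample 3 the W2 vs PL value was 0.04. Quantile normalization also brought W2 vs PL past the threshold (-1.20, adjusted p = 0.0294), and both scalings did so for PL vs EL, PL vs LG and PL vs MG (adjusted p from 0.0142 to 0.0458).

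CEBPB, a single-exon gene in many mammals, lies on chromosome 17 from 51722633 to 51723673 and was measured by NM_001199889.1. Its values were 108, 140 and 116 units in MG, 149, 118 and 113 in LG, and 82.9, 59.1 and 106 in EL. They were 28.1, 111 and 40.5 units in PL and 139, 157 and 180 in W2. PL samples 2 and 6 were the lowest of all, PL sample 3 lay near the MG samples, and every W2 sample lay above every PL and EL sample. The order of the means was W2 (158 ± 20.5 units), LG (127 ± 19.6), MG (122 ± 16.4), EL (82.6 ± 23.3) and PL (59.8 ± 44.5), in which W2, LG and MG overlapped and so did EL and PL. CEBPB was higher in W2 than in PL (log2 fold change 1.64 ± 0.39 SE, 3.11-fold, adjusted p = 0.00750) and lower in PL than in LG (-1.31 ± 0.39, adjusted p = 0.0406) and MG (-1.26 ± 0.39, adjusted p = 0.0326). The W2 vs PL call held in 15 of 15 fits that left out a sample. It was lost under scaling by the median ratio (0.91, adjusted p = 0.0841) and by quantiles (1.02, adjusted p = 0.0501), as were the calls against LG and MG.

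CEBPD lies on chromosome 4 from 79872863 to 79874481 and was measured by XM_005663091.2. Its values were 22.9, 12.1 and 17.9 units in MG, 21.9, 21.8 and 24.6 in LG, and 24.7, 19.3 and 20.8 in EL. PL held 48.4, 209 and 262 units, and W2 20.5, 27.3 and 6.89. The lowest PL sample exceeded the highest sample of any other stage, and the 12 samples outside PL overlapped from stage to stage. CEBPD was the member with the largest change: it was higher in PL than in EL (log2 fold change 2.66 ± 0.58 SE, 6.34-fold, adjusted p = 0.0221), LG (2.58 ± 0.58, adjusted p = 0.0121) and MG (2.99 ± 0.58, adjusted p = 0.00357), and lower in W2 than in PL (-3.09 ± 0.58, 8.54-fold, adjusted p = 0.00218). By mean level PL (173 ± 111 units) came before LG (22.8 ± 1.54), EL (21.6 ± 2.78), W2 (18.2 ± 10.4) and MG (17.6 ± 5.42).

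The ratio of CEBPB to CEBPD within a sample does not change when all values of the sample are scaled by the same factor. Quantile normalization, which does not use such a factor, can change it. The ratio was formed after the values of both had been seen and is given without a test. It was 4.74, 11.6 and 6.51 in MG, 6.79, 5.41 and 4.58 in LG, and 3.36, 3.07 and 5.08 in EL. In PL it was 0.581, 0.530 and 0.155, and in W2 6.77, 5.73 and 26.1. PL was thus the only stage in which CEBPD exceeded CEBPB per length, and it did so in each of its 3 samples, sample 2 included.

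**Figure D2:**
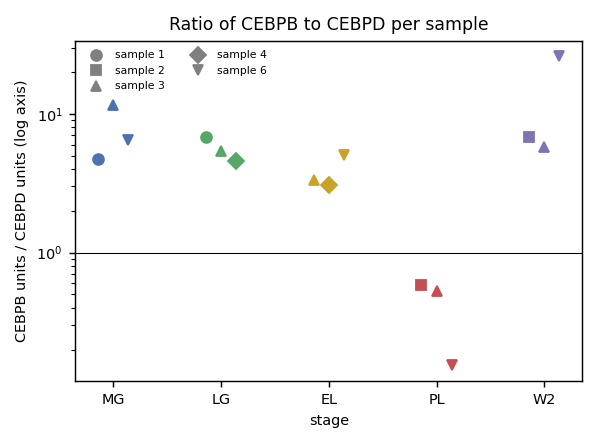
Ratio of CEBPB units to CEBPD units in each of the 15 counted samples, by stage, on a log axis, with a line at equal levels and marker shapes giving the sample number. The PL samples lie between 0.155 and 0.581, below the line, and all others lie between 3.07 and 26.1.

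The comparison of W2 with PL asks what differs between day 2 after weaning and peak lactation. Of the 7 members, CEBPB was higher in W2, and CEBPD, OSMR and STAT3 were lower; LIF, IL6ST and SOCS3 did not pass the test. The members therefore gave 1 call higher and 3 lower, whereas over all 26012 gene sums 30.4% were called higher and 2.48% lower (32.8% in all). The same genes did not overlap between the stages, CEBPB with all W2 samples above PL, as did 40.6% of all genes, and the other 3 with all W2 samples below, as did 3.37%. The median log2 fold change was 0.68 over all genes. That of the members, -0.75, was the value of LIF, which the authors' filter kept through PL alone, and is given as a description. Because the median of all genes was shifted, members were also read against it. The change minus that median was -3.77 for CEBPD, -2.07 for STAT3, -1.93 for OSMR, -1.16 for SOCS3, -1.08 for IL6ST and 0.96 for CEBPB. For LIF it was -1.42, as a description. With median ratio scaling the median of all genes was 0.10, the 3 lower members stayed called (CEBPD -3.81, STAT3 -2.09 and OSMR -1.93) and CEBPB did not. In bulk tissue, fewer cells of a type and less RNA per cell cannot be told apart.

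**Figure D3:**
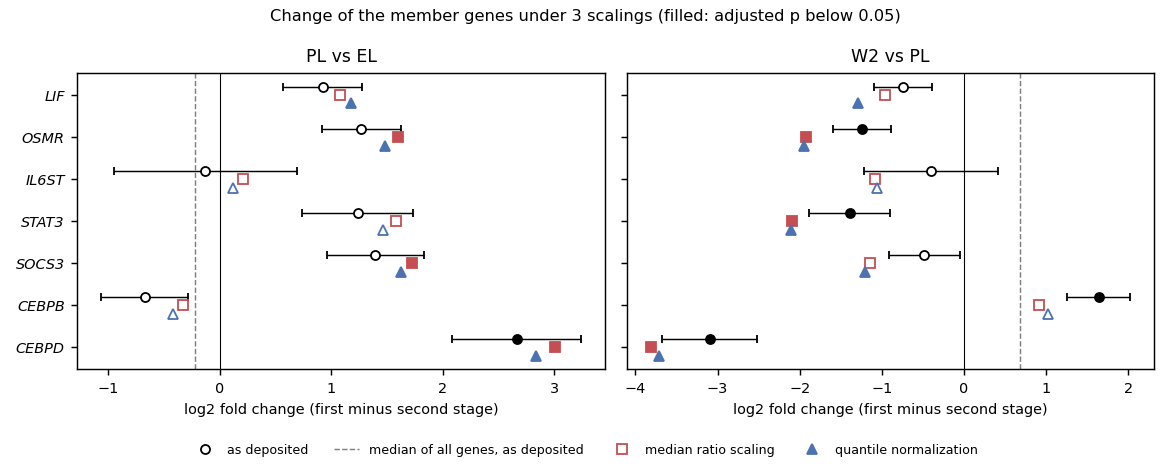
Log2 fold change of each member (horizontal axis, first minus second stage) in PL vs EL and W2 vs PL, as deposited (circles, with the standard error), after median ratio scaling (squares) and after quantile normalization (triangles), filled where the adjusted p was below 0.05. CEBPD, OSMR and STAT3 are filled under all 3 in W2 vs PL, CEBPB (1.64 as deposited) is filled as deposited alone, and the dashed line marks the median of all genes (-0.22 and 0.68).

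These calls rested on few samples. Without PL sample 3 or without PL sample 6, CEBPB and CEBPD were the only members called (2). Without PL sample 2, 6 members were called, LIF and SOCS3 being added as lower. The LIF call is given as a description, because the authors' filter kept LIF through PL alone. Of all genes, 22.9% were then called higher and 3.88% lower. OSMR also lost its call without W2 sample 6 (adjusted p = 0.0521). When PL and W2 were fitted without the other stages, no member passed at an adjusted p below 0.05, the lowest being that of CEBPD at 0.0700. In the fit of all stages 4 members passed at that adjusted threshold, and the same 4 had an unadjusted p below 0.05.

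Set against the stages before it, PL was the stage at which the members differed, and these comparisons share the PL samples with W2 vs PL. In PL vs EL, 1 member was called, CEBPD, as higher; 0.777% of all genes were called higher and 3.85% lower (4.62% in all). OSMR, STAT3 and CEBPD did not overlap, with all PL samples above all EL samples, as did 3.05% of all genes. LIF did so too, as a description, because the authors' filter kept it through PL alone. The OSMR sums of PL samples 3 and 6 include a transcript kept in the same way. The CEBPD call was lost without EL sample 3, 4 or 6 or PL sample 3 or 6 (adjusted p from 0.0578 to 0.0766 in these). Without PL sample 2, CEBPD, OSMR (1.73, adjusted p = 0.00229) and SOCS3 were called as higher in PL vs EL, against 3.72% of all genes. LIF was then called too, as a description, which made 4 members. Median ratio scaling gave 3 calls in PL vs EL, all higher: CEBPD (3.01, adjusted p = 0.00664), OSMR (1.60, adjusted p = 0.00785) and SOCS3 (1.72, adjusted p = 0.0155), against 2.61% of all genes.

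In PL vs LG, CEBPD and OSMR were called higher and CEBPB lower, against 1.62% and 13.1% of all genes (14.7% in all). The same 3 genes were called in PL vs MG, against 2.23% higher and 23.0% lower (25.2% in all). CEBPD kept both calls in 15 of 15 fits that left out a sample. OSMR kept 5 of 15 against LG and 11 of 15 against MG, where it was lost without MG sample 1 or 6 or PL sample 3 or 6, and CEBPB kept 3 of 15 against LG and 10 of 15 against MG, where it was lost without MG sample 1, 3 or 6 or PL sample 2 or 6. CEBPB lost both calls without PL sample 2 (-0.90, adjusted p = 0.132 against LG, and -0.85, adjusted p = 0.121 against MG). LIF (1.31, adjusted p = 0.00695) and SOCS3 (1.46, adjusted p = 0.0185) were then called higher against LG, and LIF (1.11, adjusted p = 0.0119), SOCS3 (1.15, adjusted p = 0.0369) and STAT3 against MG. The LIF calls are again a description, because of the authors' filter. Over the 10 comparisons the members had 11 calls, beside 7.81% of all gene tests. Under a stricter rule, which also asks for a log2 fold change of 2 or more in size, 4 were left, all of CEBPD, beside 1.33% of all gene tests.

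Among MG, LG, EL and W2, no member passed limma's adjusted threshold in any of the 6 comparisons, and few genes of the table did (0.0115% in LG vs MG and in W2 vs MG, 0.0269% in EL vs MG, 0.0154% in EL vs LG, 0.0346% in W2 vs LG and 0.554% in W2 vs EL). At an unadjusted p below 0.05 there was 1 member, CEBPB in W2 vs EL (log2 fold change 0.97 ± 0.39 SE, adjusted p = 0.156). On day 2 after weaning, no member thus showed a difference from gestation that these samples could detect. So few genes passed against gestation that this says little about the members. Some members separated without passing: CEBPB, IL6ST, LIF and SOCS3 lay lower in all EL samples than in all MG samples, as did 27.5% of all genes, and CEBPB, LIF and SOCS3 lay higher in all W2 samples than in all EL samples, as did 35.5%.

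As a value for single genes, each stage was also set against the 12 samples of the other stages by an exact two-sided permutation test, which cannot give a p below 0.0022 and was run 35 times. CEBPD in PL reached that smallest p, 0.0022 by exact permutation (Benjamini-Hochberg adjusted 0.0513). OSMR and STAT3 in PL gave an exact permutation p of 0.0044 (adjusted 0.0513) and CEBPB in PL 0.011 (adjusted 0.0962). LIF in PL gave an exact permutation p of 0.0154 (adjusted 0.108), as a description. None passed after adjustment. An exact permutation of 3 samples of a stage with 3 of another cannot give less than 0.10.

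OSMR, IL6ST and SOCS3 were each split over several transcripts, and the split differed between samples of a stage. For OSMR, XM_003133904.5 held 40.4% of the units, XM_013984748.2 32.3% and XM_021077088.1 15.5%; in EL sample 3 the first held 3.52 of 3.56 units, and in EL sample 4 it was listed at 0 and the second held all 5.79. XM_013984752.2, below the naming limit of 10% and named after its values were seen, reached 4.29 and 3.76 units in PL samples 3 and 6 and was listed at 0 in the other 13 samples.

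For IL6ST, XM_021076515.1 held 85.6% of the units. In PL sample 6 it was listed at 0 and all 23.2 units lay on XM_021076516.1, which was listed at 0 in the other 14 samples. In W2 sample 6 it held 0.579 units, and XM_021076517.1 held 0.906. The SOCS3 transcript XM_021066253.1 held 56.7% of its gene, with 10.1 and 3.70 units in PL samples 3 and 6 and 0 listed in PL sample 2, and NM_001123196.1 held 43.3%, with 2.62 to 3.23 units over the 3 PL samples. At transcript level, 4 member calls were made over the 10 comparisons (1.46% of all transcript tests): CEBPD in PL vs MG, PL vs LG and W2 vs PL, and CEBPB in W2 vs PL. The STAT3 transcript in W2 vs PL had the same log2 fold change as its gene (-1.39) but an adjusted p of 0.122 there. XM_021076516.1 and XM_013984752.2, like LIF, reached the authors' floor of 0.5 units in PL alone. Assembled transcripts without a reference name (29047 of 61773) carry no coordinates in the table, so any of them at these loci stay outside the sums.

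**Figure D4:**
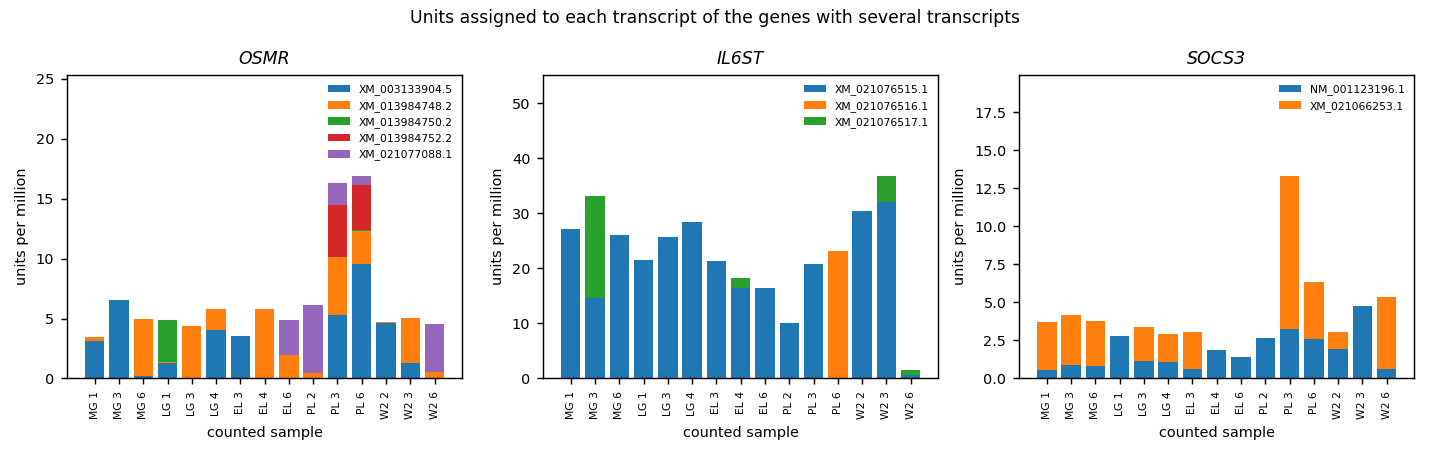
Units assigned to each transcript of OSMR, IL6ST and SOCS3 (stacked bars, starting at 0) in the 15 counted samples. The transcript holding most units changes between samples of a stage, as in PL sample 6, where all 23.2 units of IL6ST lie on a transcript that is listed at 0 elsewhere.

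The other genes of the route were taken from a list of 20, of which 16 were measured; IL6, IL11, OSM and CTF1 were not analysed here. In W2 vs PL, 6 were called higher and 0 lower, beside 30.4% and 2.48% of all genes, 10 did not pass, and the median log2 fold change was 0.59 beside 0.68 for all genes. After median ratio scaling 2 were higher and 2 lower, beside 7.67% and 5.56% of all genes. Of the related ligands, CNTF stood at 1.07 ± 0.443 units (SD, n = 3) in PL and 1.34 ± 0.625 in W2, and CLCF1 at 1.41 ± 1.15 and 1.52 ± 0.169. Neither passed at an adjusted p below 0.05, nor at an unadjusted one, and both changed sign with scaling.

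Of the receptors, CNTFR, the ciliary neurotrophic factor receptor, was higher in W2 (1.61 ± 0.862 against 0.268 ± 0.328 units, log2 fold change 1.45 ± 0.46 SE, adjusted p = 0.0286), but not after median ratio scaling (1.17, adjusted p = 0.107) or without PL sample 2 (1.19, adjusted p = 0.0987). IL11RA held 3.27 ± 2.74 units in PL and 3.62 ± 1.61 in W2 (adjusted p = 0.610), with a sign that turned under quantile normalization. IL6R held 3.01 ± 1.62 and 1.80 ± 0.181 units (adjusted p = 0.346) and was called lower after median ratio scaling (-1.06, adjusted p = 0.0439) and without PL sample 2 (-0.95, adjusted p = 0.0291).

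The kinases JAK1, JAK2 and TYK2 did not pass (log2 fold changes 0.06, 0.44 and 0.59), and the sign of all 3 turned with median ratio scaling, under which JAK1 was called lower (-0.66, adjusted p = 0.0428). CEBPA, a family member tied to differentiation, showed the largest change of the list, from 8.82 ± 4.26 units in PL to 40.3 ± 1.95 in W2 (log2 fold change 2.23 ± 0.32 SE, adjusted p = 0.000504). PIAS3, an inhibitor of STAT3, went from 4.96 ± 2.40 to 16.5 ± 2.74 units (1.73 ± 0.32, adjusted p = 0.00209). Both stayed called after median ratio scaling (1.52 and 1.05). SOCS1 (1.15), PTPN11 (0.97) and CEBPG (0.95), a partner of other C/EBP proteins, were called as deposited but under neither scaling. CEBPA was also the 1 gene of the list called in PL vs EL, as lower (-1.39, adjusted p = 0.0274). It missed the threshold without PL sample 2 (-1.10, adjusted p = 0.0557), and CLCF1 (1.17, adjusted p = 0.0175), IL6R (1.23, adjusted p = 0.0222) and JAK1 (0.69, adjusted p = 0.0104) were then called higher.

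A second list held 20 genes known as targets of STAT3 or C/EBP proteins, or as their inducer, in involution or in the acute phase, and all 20 were measured. Like the first list, it was chosen with earlier results of these data known, so its counts are given as a description. In W2 vs PL, 8 were lower and 2 higher, against 2.48% and 30.4% of all genes, with a median log2 fold change of -1.40 beside 0.68. The 8 were mainly acute phase and innate immune genes: LBP (-7.81 ± 0.82 SE), which binds bacterial lipopolysaccharide, HP (-6.54 ± 0.75), the haemoglobin scavenger haptoglobin, SAA3 (-6.17 ± 0.35), serum amyloid A made in mammary epithelium, LRG1 (-5.26 ± 0.59), CD14 (-3.64 ± 0.93), the lipopolysaccharide co-receptor, the adhesion molecule ICAM1 (-2.22 ± 0.67), and the AP-1 subunits FOS (-1.88 ± 0.54) and JUNB (-1.32 ± 0.46), with adjusted p from 2.42e-06 to 0.0450. The 2 higher genes were MYC, a driver of growth (2.14 ± 0.39, adjusted p = 0.00186), and TGFB3, a cytokine induced by milk stasis in rodents (1.12 ± 0.24, adjusted p = 0.00422). After median ratio scaling 13 were lower and 0 higher, beside 5.56% and 7.67% of all genes, the signs of MYC (1.47) and TGFB3 (0.42) being kept.

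Per sample, LBP held 246, 2271 and 2232 units in PL against 2.94, 3.12 and 8.37 in W2. SAA3 held 31131, 49876 and 48332 units against 613, 483 and 678. Both were high in all 3 PL samples, as was LRG1 (28.8, 150 and 244 units against 2.95, 3.01 and 1.10). Other targets split the PL samples: CD14 stood at 9.23, 234 and 298 units and LCN2, lipocalin, at 9.43, 1122 and 1647, so that PL sample 2 lay close to the W2 samples for CD14 (5.38 to 7.90 units) and below them for LCN2 (21.5 to 23.7 units). LCN2 (adjusted p = 0.0651), IGFBP5 (0.0633), which binds insulin-like growth factors in the involuting gland, and BCL3 (0.0660) did not pass in W2 vs PL as deposited. All 3 were called lower under both scalings. Without PL sample 2, LCN2 (-5.86, adjusted p = 2.57e-07), IGFBP5 (-2.53, adjusted p = 0.00205) and MCL1 (-0.59, adjusted p = 0.00613), a survival factor of the BCL2 family, were called lower.

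In PL vs EL, CD14, FOS, IGFBP5, LBP, LRG1 and SAA3 rose and TGFB3 fell, with log2 fold changes of 2.42 to 4.93 for the 6 and -0.98 for TGFB3, which was called as deposited but under neither scaling. TGFB3 also missed the threshold (-0.94, adjusted p = 0.0535) without PL sample 2, and ICAM1, JUNB, LCN2 and MCL1 were then called higher and MYC lower. In W2 vs MG, 0 of the 20 passed limma's adjusted threshold, beside 0.0115% of all genes, and 1, HP, an unadjusted p below 0.05. So few genes passed in that comparison that the 0 says little about the targets. The lysosomal proteases CTSB and CTSL, which STAT3 induces in involution of the mouse, did not pass in W2 vs PL (0.34 and 1.23, adjusted p = 0.706 and 0.162), and the sign of CTSB turned with scaling.

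**Figure D5:**
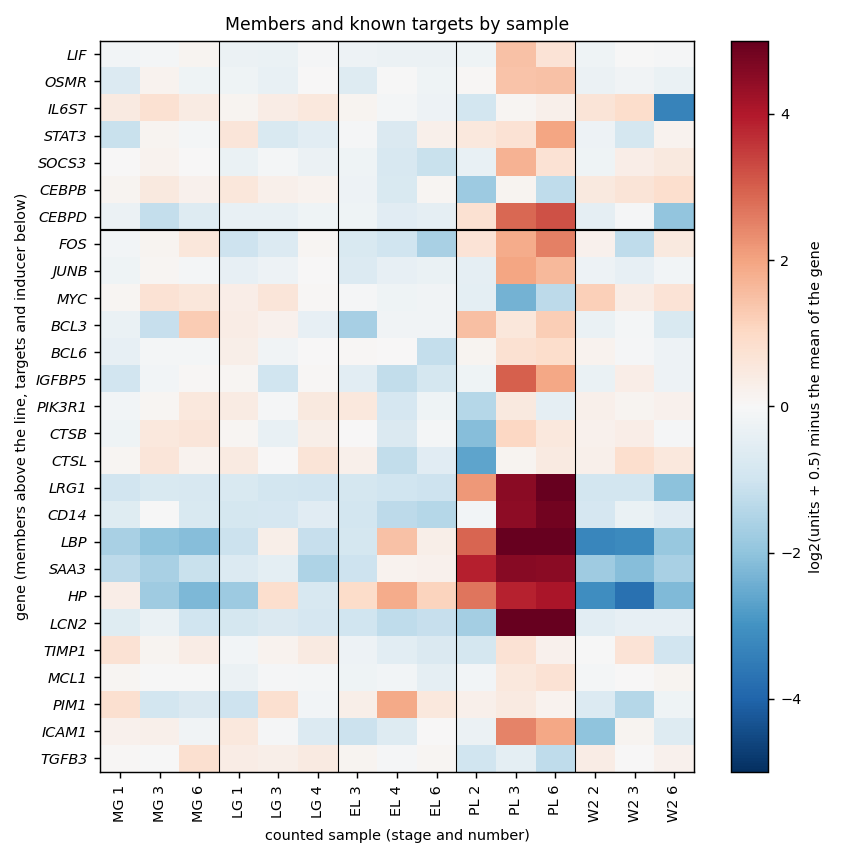
Log2(units + 0.5) of the 7 members (above the line) and of the 20 targets and inducer (below it) in the 15 counted samples, each gene centred on its own mean, in colours that saturate at the ends of the scale. PL samples 3 and 6 are red for LIF, OSMR, STAT3, SOCS3, CEBPD and most acute phase genes, and PL sample 2 is red for CEBPD, LRG1, LBP, SAA3 and HP but not for CD14 or LCN2.

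Markers of other cell types moved between the same stages, and their part in the results was not tested. In W2 vs PL, 3 of 3 macrophage genes were higher (summed level 16.0 to 32.1 units in PL, 58.6 to 66.0 in W2), and so were 4 of 5 fibroblast genes (429 to 990 units in PL, 1192 to 2309 in W2) and 2 of 3 endothelial genes (68.9 to 101 against 112 to 128). Over all genes, 30.4% were called higher and 2.48% lower in this comparison. Of the 4 neutrophil genes, S100A8, S100A9 and S100A12 were lower in W2 (summed level of all 4 genes 9.21 to 47.0 units in PL, 1.30 to 2.79 in W2), with S100A8 listed at 0 in every W2 sample. CSF3R, which defines neutrophils, was not called and held 0.116 to 1.53 units in PL. In PL vs EL, the same 3 neutrophil genes were higher in PL, beside 0.777% of all genes. S100A8 and S100A9, like LIF, reached the authors' floor of 0.5 units in PL alone. Their calls against PL are thus not independent of that filter and are given as a description. The summed level of all 4 neutrophil genes was 0.458 to 1.41 units in EL. All 6 milk protein genes were lower in W2 than in PL. Of the 5 luminal and 4 myoepithelial genes 0 passed limma's adjusted threshold, and 0 an unadjusted p below 0.05, with summed luminal levels of 771 to 1592 units in PL and 1249 to 1720 in W2. Of 3 adipocyte genes FABP4 was higher and LEP lower, and 1 of 4 lymphocyte genes, CD3E, was higher. LEP, too, reached the authors' floor in PL alone, so its call is given as a description. After median ratio scaling, CSF1R of the macrophage genes and COL3A1 of the fibroblast genes were still called higher and the 3 neutrophil genes and 6 milk proteins lower, while EPCAM (-0.71), ACTA2 (-0.47) and OXTR (-0.99) were called lower. Of all genes, 7.67% were then called higher and 5.56% lower.

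Across the 15 samples and 8151 annotated genes with a mean of at least 5 units, the genes most like each member in log2 units were as follows, as a description. The samples share stages and scaling, so these values can hold the difference of PL from the rest. CEBPD was most like LRG1 (Pearson r = 0.96), LOC106507819 (0.93) and NPC2 (0.91), and OSMR most like the complement gene C3 (0.94), CD14 (0.94) and NFIL3 (0.93). Over the 12 samples outside PL these fell to 0.74, 0.29 and 0.44 for CEBPD, and to 0.48, 0.21 and 0.44 for OSMR. CEBPB was most like TEAD2 (0.96), NOTCH1 (0.96) and BCOR (0.95), which stood at 0.88, 0.89 and 0.88 outside PL. SOCS3 was most like RARRES1 (0.94), COL17A1 (0.94) and ELOVL7 (0.93), STAT3 most like MAN1C1 (0.83), PRSS8 (0.82) and TMC4 (0.81), and IL6ST most like C6H16orf70 (0.97), LOC100624785 (0.97) and GOLGA1 (0.94). Outside PL these stood at 0.89, 0.90 and 0.86 for SOCS3, and at 0.57, 0.72 and 0.74 for STAT3. For IL6ST they stood at 0.99, 0.98 and 0.96, no lower than with PL. These 12 samples include W2 sample 6, which held 1.48 units of IL6ST against 10.0 to 36.8 in all others. The values for IL6ST can thus rest on that sample, which was not tested.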

How the data were processed

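RNA-seq of mammary parenchyma was analysed from the deposited expression table alone. The authors trimmed reads with Trimmomatic, aligned them to Sscrofa11.1 with HISAT2, quantified transcripts with StringTie and dropped those that reached an FPKM of 0.5 in no stage. They name RUVs for unwanted variation, and whether the table includes it is not stated in the sources used here. The deposited values, called FPKM by the authors, sum like TPM and were treated as TPM. The study lists reads per library in its supplement, which were not used here. The table gives no reads per gene, so counting error was not computed, and edgeR, which the authors ran on counts, was not used.

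Of 61773 transcript identifiers, 32396 matched a RefSeq transcript of Sscrofa11.1 and were summed per gene. In each stage, 3 samples differed pairwise by a median of at most 1.85% and their mean from that of the others by at most 0.741%; they were not counted. The test was that of limma 3.58.1 (R 4.3.3) on log2(sum + 0.5), 15 samples in a single fit, trended variance and Benjamini-Hochberg adjustment over 26012 gene sums per comparison, called at an adjusted p below 0.05. The procedure was tested on simulated data. Members, lists and rules were chosen with earlier results of these data known: members were named in every comparison, transcripts with at least 10% of their gene, ligands and receptors always, and other listed genes where called in W2 vs PL (up to 10), and the 3 genes most like each member. BCL3, IGFBP5, LCN2, MCL1, CTSB, CTSL, the kinases, the PL vs EL names and the single marker genes were named after their values were seen.

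Alternatives were pseudocounts of 0.1 and 1, a mean of at least 1 unit, median ratio scaling on 2698 transcripts with at least 10 units in every counted sample, quantile normalization, all 6 samples per stage, the compared stages alone, a replicate block, and each sample left out. The labels name no batch, and within-batch values were therefore not computed. A gene of the pathway list enters the counts but is not reported here by name.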

Additional observations from a re-analysis of the deposited data

How the results depend on the processing

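Of 640 alternative values of single members in the 4 comparisons with PL, 520 kept direction and side of the threshold. With a sample left out, IL6ST in W2 vs PL ran from -1.15 to 0.96 (turning without W2 sample 6), SOCS3 from -1.02 to 0.040 (turning without PL sample 3) and IL6ST in PL vs EL from -0.35 to 0.24 (turning without PL sample 2). IL6ST in PL vs EL also turned to 0.21 with median ratio scaling and 0.12 with quantile normalization. Member calls in W2 vs PL (4) became 0 with the compared stages alone, 2 on the transcript with the highest mean of each gene, and 2 to 6 with a sample left out. In PL vs EL (1) they became 3 with median ratio scaling, 4 with quantile normalization, 5 with all 6 samples, 0 with the compared stages alone, 0 with the replicate block, and 0 to 4 with a sample left out. EL vs LG (0) gave 2 with all 6 samples and 0 with any sample left out. The 11 calls over 10 comparisons became 19 with quantile normalization, 26 with all 6 samples, 0 with the compared stages alone, 5 with the replicate block, 4 where a log2 fold change of 2 or more in size was also asked for, and 4 to 19 with a sample left out (19 without PL sample 2, 7 without PL sample 3, 4 without PL sample 6, 6 without MG sample 6). Member transcripts (4) gave 9, 39, 0 and 2 under quantile normalization, all 6 samples, the compared stages alone and the replicate block, and 2 to 11 with a sample left out. Calls of the other route genes in W2 vs PL (6) gave 3 with quantile normalization, 3 with the compared stages alone and 4 to 7 with a sample left out, and targets (10) gave 18 with all 6 samples, 5 with the compared stages alone and 7 to 13 with a sample left out. Using all 6 samples counts near-copies of a mean as replicates, and the compared stages alone leave fewer samples for the spread; the cause of the other shifts was not tested.

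Same-numbered samples did not deviate together (r from -0.139 to 0.171 over 19 pairs, -0.190 to 0.256 over the 71 other pairs), so the numbers pair no samples by design, although in PL and W2 each sample correlated best with its own number. With the replicate block the 4 member calls in W2 vs PL stayed at 4. Over all genes, W2 vs PL gave 7899 higher and 644 lower as deposited, against 1995 and 1447 with median ratio scaling. LIF could not be tested with a mean of at least 1 unit. Counts that include LIF in a comparison with PL are given as a description, because the authors' filter kept it through PL alone. Reads per gene were not used here, so the precision given is that of the spread of 3 samples.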
